A study of Homo sapiens with 12 samples.

Results

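Erlotinib, an inhibitor of the epidermal growth factor receptor (EGFR) kinase, was given to 2 stable lines of PC-9 (PC9) cells, and the difference between their transcript responses is described here. PC9 is a human lung adenocarcinoma line that carries an activating EGFR mutation and depends on that receptor. The lines carried either a GFP vector or a miR371 precursor, and each was treated for 24 h with DMSO, the solvent, or with 2 µM erlotinib. The 4 groups (GFP vector with DMSO, GFP vector with erlotinib, miR371 precursor with DMSO, miR371 precursor with erlotinib) held 3 expression arrays each, 12 in all. For each of 19775 genes, all those with a probe set of a single gene symbol, the response was erlotinib minus DMSO on the log2 scale, and the difference of response was the response in miR371 precursor cells minus that in GFP vector cells. A positive difference therefore stands for a smaller fall or a larger rise in miR371 precursor cells. There was 1 line of each kind, so the miR371 precursor cannot be told apart from any other property of that line. The study's statistical methods call all of its replicates biological, without naming the arrays, while the labels tie the 3 arrays of a group to no separate cultures. The p-values therefore speak for the spread among the arrays at hand.

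EGFR signals through RAS and the MAPK cascade to immediate-early transcription factors such as FOS and EGR1, and further on to the genes that carry a cell from G1 into DNA synthesis. When the kinase is blocked in EGFR-dependent cells, those genes fall, while genes of differentiated epithelium, of lysosomes and of interferon responses often rise. The miR371 precursor is cut into a pair of mature microRNAs, which pair with transcripts chiefly through bases 2 to 8, the seed, written here in capitals, 5′ to 3′, from RefSeq. They lie on chromosome 19, plus strand, GRCh38.p14, at chr19:53787716-53787738 (hsa-miR-371a-3p) and chr19:53787680-53787699 (hsa-miR-371a-5p), and are shown because they are the part of the precursor that acts on transcripts.
hsa-miR-371a-3p: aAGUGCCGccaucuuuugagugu
hsa-miR-371a-5p: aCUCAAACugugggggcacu
None of the tested genes reads either microRNA or the GFP transcript, so the arrays hold no direct check of the line labels.

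The arrays were alike in level, with median log2 values of 4.31 to 4.41, and the mean correlation within a group was 0.996 to 0.997. All 8 epithelial markers of PC9 cells were well expressed, with mean log2 values of 9.08 to 13.59. Of 10 fibroblast and 8 leukocyte markers, 9 and 8 stayed under a log2 value of 6 in every group. In GFP vector DMSO replicate 1 the upper quartile of the array was 6.92, the highest of the 12. Within each group the upper quartile fell from replicate 1 to replicate 3. With DMSO it was 6.77 to 6.92 in GFP vector cells and 6.72 to 6.74 in miR371 precursor cells.

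Most genes that responded in both lines responded by less in miR371 precursor cells. Of 1752 genes that fell in both lines, 1408 (80.4%) fell by less in miR371 precursor cells, where the median gene kept 87.8% of its log2 fall in GFP vector cells. Of 2285 genes that rose in both lines, 1674 (73.3%) rose by less, and the median gene kept 90.8% of its rise. A response was called where the limma adjusted p was under 0.05 and the fold over 1.5. By those limits 11.7% of all genes fell and 14.1% rose in GFP vector cells, against 9.33% and 12.6% in miR371 precursor cells. Leaving out GFP vector DMSO replicate 1, the array with the highest upper quartile, gave 75.1% of falls and 77.8% of rises that were smaller.

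The difference of response itself passed the same limits in 158 genes, 0.799% of those tested. It was positive in 102 (0.516%) and negative in 56 (0.283%), and it passed an unadjusted p under 0.05 in 2974. A smaller or lost response accounted for 141 of the 158. In 62 genes a fall was called in both lines and was smaller in miR371 precursor cells, with a median response of -1.76 in GFP vector cells and -1.05 in miR371 precursor cells. In another 27 the fall was called only in GFP vector cells (median -0.98 against -0.35). Such a fall is named lost here, although 17 of the 27 were still lower at an adjusted p under 0.05 in miR371 precursor cells. A rise was smaller in 44 genes (median 2.58 against 1.69) and lost in 8 (1.00 against 0.22). A larger or gained rise was found in 8 genes and a gained fall in 1, while no gene called in both lines moved in opposite directions. The 8 genes left were called in neither line, and in all 8 the responses had opposite signs. Without miR371 precursor DMSO replicate 1 the negative differences numbered 35, and the smaller or lost rises 32. The plot of both responses places the 141 smaller or lost responses on the side of the diagonal that faces no response in miR371 precursor cells.

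**Figure D1:**
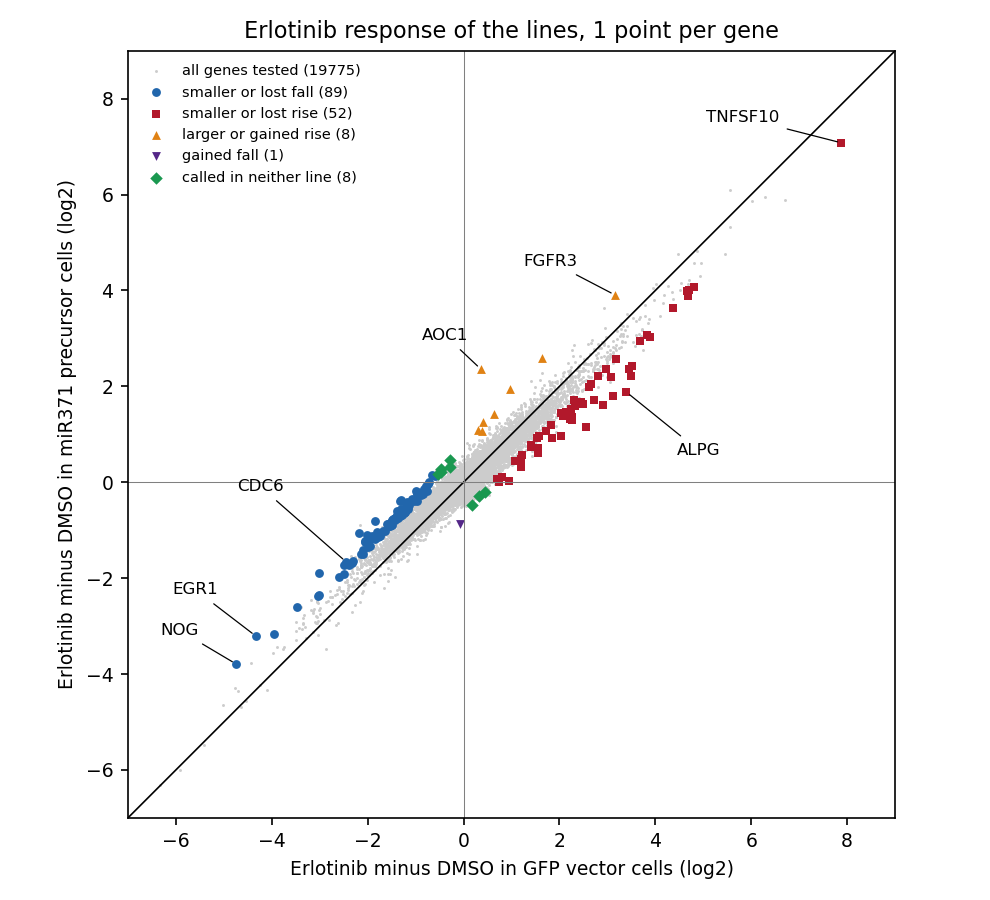
Response to erlotinib (erlotinib minus DMSO, log2) in GFP vector cells on the x axis and in miR371 precursor cells on the y axis, 1 point per gene, with a diagonal line of equal response. Grey points are all 19775 genes and coloured marks are the 158 genes whose difference of response passed, by class. The 89 smaller or lost falls (blue) lie above the diagonal on the left and the 52 smaller or lost rises (red) below it on the right, while AOC1 and FGFR3 stand among the 8 larger or gained rises.

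Genes of DNA replication fell less in miR371 precursor cells. All 32 genes of the replication list had a positive difference of response, and 20 passed the adjusted p, against 1.44% of all genes (0.561% passed with a negative difference, and 2.00% with either). The list's median response was -1.27 in GFP vector cells and -0.86 in miR371 precursor cells, with a median difference of 0.47, beside -0.01 over all genes. Every one of the 32 fell at the adjusted p in GFP vector cells, where 23.4% of all genes did, and 30 fell in miR371 precursor cells, where 22.2% did. Over all genes that fell at the adjusted p in GFP vector cells, 78.9% fell by less in miR371 precursor cells. Of the 32, 0 stayed under a log2 value of 6 in every group, where 48.1% of all genes did. Without miR371 precursor DMSO replicate 1 the positive differences numbered 13, and without its replicate 2 they numbered 12. The gene lists were drawn up with earlier results of these data known, so their counts are a description.

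CDC6, which loads the replicative helicase at origins, shows the pattern. In GFP vector cells its array values were 9.17, 9.12 and 9.13 with DMSO and 6.79, 6.64 and 6.61 with erlotinib. In miR371 precursor cells they were 9.07, 9.02 and 8.97 with DMSO and 7.39, 7.33 and 7.37 with erlotinib. The lines lay close together before treatment, and with erlotinib every miR371 precursor array stood above every GFP vector array. The fall was 2.45 log2 units in GFP vector cells and 1.66 in miR371 precursor cells, a difference of 0.80 ± 0.08 (SE, 3 arrays a group, limma adjusted p = 0.00415). Between the lines CDC6 differed by -0.12 in DMSO (adjusted p = 0.266) and by 0.68 in erlotinib (adjusted p = 9.33e-05).

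MCM6, a subunit of that helicase, read 11.25, 11.22 and 11.22 in GFP vector cells with DMSO and 9.87, 9.74 and 9.81 with erlotinib. The miR371 precursor arrays read 11.13, 11.00 and 11.19, then 10.29, 10.37 and 10.40. The lines did not overlap in erlotinib, and the fall went from -1.42 to -0.75 (difference 0.67 ± 0.09, adjusted p = 0.00703). PCNA, the sliding clamp of the DNA polymerases, read 11.99, 11.96 and 11.96, then 10.94, 10.96 and 10.86 in GFP vector cells, and 11.99 to 12.07, then 11.46, 11.54 and 11.58 in miR371 precursor cells. Its fall was thus 1.05 in one line and 0.50 in the other (difference 0.55 ± 0.08, adjusted p = 0.0072, under the fold limit). POLE2, a subunit of DNA polymerase epsilon, fell by 2.00 in GFP vector cells and by 1.26 in miR371 precursor cells (difference 0.74, adjusted p = 0.0072). For GINS2, a subunit of the GINS complex of the helicase, the difference was 0.67 (adjusted p = 0.00615). CDC45, CLSPN and MCM10, of the replication fork, were picked for this text after their values were seen, and had differences of 0.79, 0.81 and 0.77. In the nucleotide supply list 4 of 9 genes had a positive difference at the adjusted p and 0 a negative one, with a median of 0.37. Over all genes the shares were 1.44% and 0.561%. TYMS, the thymidylate synthase, was among the nucleotide supply genes past the adjusted p. Its fall of 1.16 in GFP vector cells was 0.57 in miR371 precursor cells (difference 0.60, adjusted p = 0.00926). The mean over all of its probe sets ended the call of GINS2 (0.36, adjusted p = 0.0744).

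Promoters of many replication genes hold a sequence feature that the comparison did not use. Windows from 250 bases before to 50 after the transcript start (RefSeq, GRCh38.p14) were searched on both strands for TTTCCCGC, TTTCGCGC, TTTGCCGC and TTTGGCGC, letters that the E2F factors of the G1/S transition are known to bind. A window held one in 16 of 27 replication genes with a listed promoter (59.3%), in 7 of 15 recombination and checkpoint genes (46.7%), in 3 of 27 mitosis genes (11.1%) and in 0 of 18 genes of MAPK output. Of 15384 tested genes with a listed promoter, 671 (4.36%) held one, and of all 27305 promoters of the same length 3.33% did. Over the 68 smaller or lost falls with a listed promoter the share was 19.1%, and over the 40 smaller or lost rises it was 2.50%. Mitosis genes instead held TTTGAA or TTCGAA, the letters of the cell cycle homology region, in 20 of 27 windows (74.1%, against 13.3% of tested genes and 16.6% of all promoters), and CCAAT in 77.8% (against 36.1% and 35.7%). None of these letter strings contains another of the 3 kinds. A match describes the letters of the window and is not a measured binding site. The lists were chosen by function and with earlier results known. Genes that fell alike in both lines were not counted apart. The shares therefore cannot tie these letters to the difference of response rather than to the fall itself. The 30 bases around a match are shown for 5 replication genes named above and for EXO1, an exonuclease of recombination. MCM6 held another match, nearer the transcript start, that is not shown. The match is in capitals, and each window is as read on the strand of its gene.
CDC6, chr17:40287875-40287904, plus strand: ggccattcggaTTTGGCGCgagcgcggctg
MCM6, chr2:135876577-135876606, minus strand: agggctttgcaTTTGGCGCgaaatcccttt
POLE2, chr14:49688201-49688230, minus strand: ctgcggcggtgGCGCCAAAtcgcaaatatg
GINS2, chr16:85688967-85688996, minus strand: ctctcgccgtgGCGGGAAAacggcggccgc
CLSPN, chr1:35769965-35769994, minus strand: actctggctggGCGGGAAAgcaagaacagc
EXO1, chr1:241848197-241848226, plus strand: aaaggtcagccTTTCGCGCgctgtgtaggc

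Among the 27 measured regulators of the cell cycle, 7 had a positive difference at the adjusted p and 0 a negative one, with a median of 0.23. Of all genes, 1.44% and 0.561% did. CCNE2, cyclin E2, which drives entry into S phase, read 8.92, 8.77 and 8.71 in GFP vector cells with DMSO and 7.40, 7.60 and 7.48 with erlotinib. In the other line it read 8.21, 8.31 and 8.33, then 7.86, 7.81 and 8.08. This gene started lower and ended higher in miR371 precursor cells, with no overlap between the lines in either treatment. Its fall was 1.31 in GFP vector cells and, under the fold limit, 0.37 in miR371 precursor cells (difference 0.94 ± 0.12, 95% interval 0.68 to 1.21, adjusted p = 0.00624). E2F7, a repressor of the E2F family, fell by 1.86 in GFP vector cells and by 0.82 in miR371 precursor cells (difference 1.04 ± 0.13, adjusted p = 0.00624), though a dimmer probe set of E2F7 gave -0.10. MYBL1, a transcription factor of the MYB family that is in no list, fell by 2.17 and by 1.06 (difference 1.11, adjusted p = 0.00624). The mean over the MYBL1 probe sets was 0.31 (adjusted p = 0.155). FOXM1, which drives mitotic genes, had a difference of 0.59 (adjusted p = 0.0128). The difference of CDKN1A, the CDK inhibitor p21, which was picked after its values were seen, was 0.00 (95% interval -0.20 to 0.21, adjusted p = 0.992), with falls of 0.91 and 0.90.

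Mitosis genes fell by a median of 0.92 in GFP vector cells and 0.42 in miR371 precursor cells. Of 32 genes, 18 had a positive difference at the adjusted p and 0 a negative one (1.44% and 0.561% of all genes), with a median of 0.44. In GFP vector cells 31 of them fell at the adjusted p, where 23.4% of all genes did. In miR371 precursor cells 24 fell, where 22.2% of all genes did. MKI67, the proliferation marker Ki-67, read 9.43, 9.33 and 9.33, then 8.27, 8.22 and 8.08 in GFP vector cells, and 9.24, 9.17 and 9.08, then 8.77, 8.82 and 8.69 in miR371 precursor cells. All 4 of its probe sets passed, with differences of 0.77 to 0.92. KIF11, the kinesin that separates spindle poles, read 8.60, 8.59 and 8.50, then 8.15, 8.13 and 8.06 in GFP vector cells. The miR371 precursor arrays stood at 8.57, 8.57 and 8.62 before and 8.66, 8.63 and 8.79 after erlotinib. Its fall of 0.45 in GFP vector cells thus had no counterpart past the test in miR371 precursor cells (response 0.11, adjusted p = 0.168, difference 0.56 ± 0.08, adjusted p = 0.00782). CDK1, the mitotic kinase, CCNA2, its cyclin A2 partner, and PRC1, which bundles the central spindle, had differences of 0.51, 0.47 and 0.51. PLK1, another mitotic kinase, picked after its values were seen, had one of 0.19 (95% interval -0.10 to 0.47, adjusted p = 0.556). The count of 18 was 10 without GFP vector DMSO replicate 2, 7 without miR371 precursor DMSO replicate 1, 10 without its replicate 2 or 3, 10 without GFP vector erlotinib replicate 2 and 8 without miR371 precursor erlotinib replicate 2.

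Genes of homologous recombination and the checkpoint stood highest among the lists, with a median difference of 0.57 over 16 genes. Of the 16, 12 passed with a positive sign and 0 with a negative one, against 1.44% and 0.561% of all genes. Their median fall was 0.99 in GFP vector cells and 0.40 in miR371 precursor cells. BRIP1, a helicase that works with BRCA1, read 7.94 to 8.03, then 7.50, 7.34 and 7.34 in GFP vector cells. The other line held values of 7.71, 7.82 and 7.79 with DMSO and 7.90, 7.89 and 7.90 with erlotinib. The fall of 0.60 in one line stood beside a response of 0.13 in the other (adjusted p = 0.107), a difference of 0.72 ± 0.08 (adjusted p = 0.00615). BRCA1 itself fell by 0.57 in GFP vector cells, with a response of -0.01 in miR371 precursor cells (adjusted p = 0.919, difference 0.56, adjusted p = 0.00926). FANCI, of the Fanconi pathway, had a difference of 0.57 (adjusted p = 0.00742), and EXO1, picked after its values were seen, one of 0.66. Outside every list, ESCO2, which acetylates cohesin during S phase, had a difference of 0.92 (adjusted p = 0.0129), and IQGAP3, a scaffold protein of the IQGAP family, one of 0.82 (adjusted p = 0.00942). For ESCO2 and IQGAP3 the mean over all probe sets ended the call (0.34, adjusted p = 0.109, and 0.10, adjusted p = 0.683). Over the 5 cell cycle lists together, 61 of 116 genes passed with a positive difference and 0 with a negative one. Of the 89 smaller or lost falls, 19 were in one of these lists, which hold 116 of all 19775 genes tested. Of the 52 smaller or lost rises 0 were, which beside that share is read as no result.

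**Figure D2:**
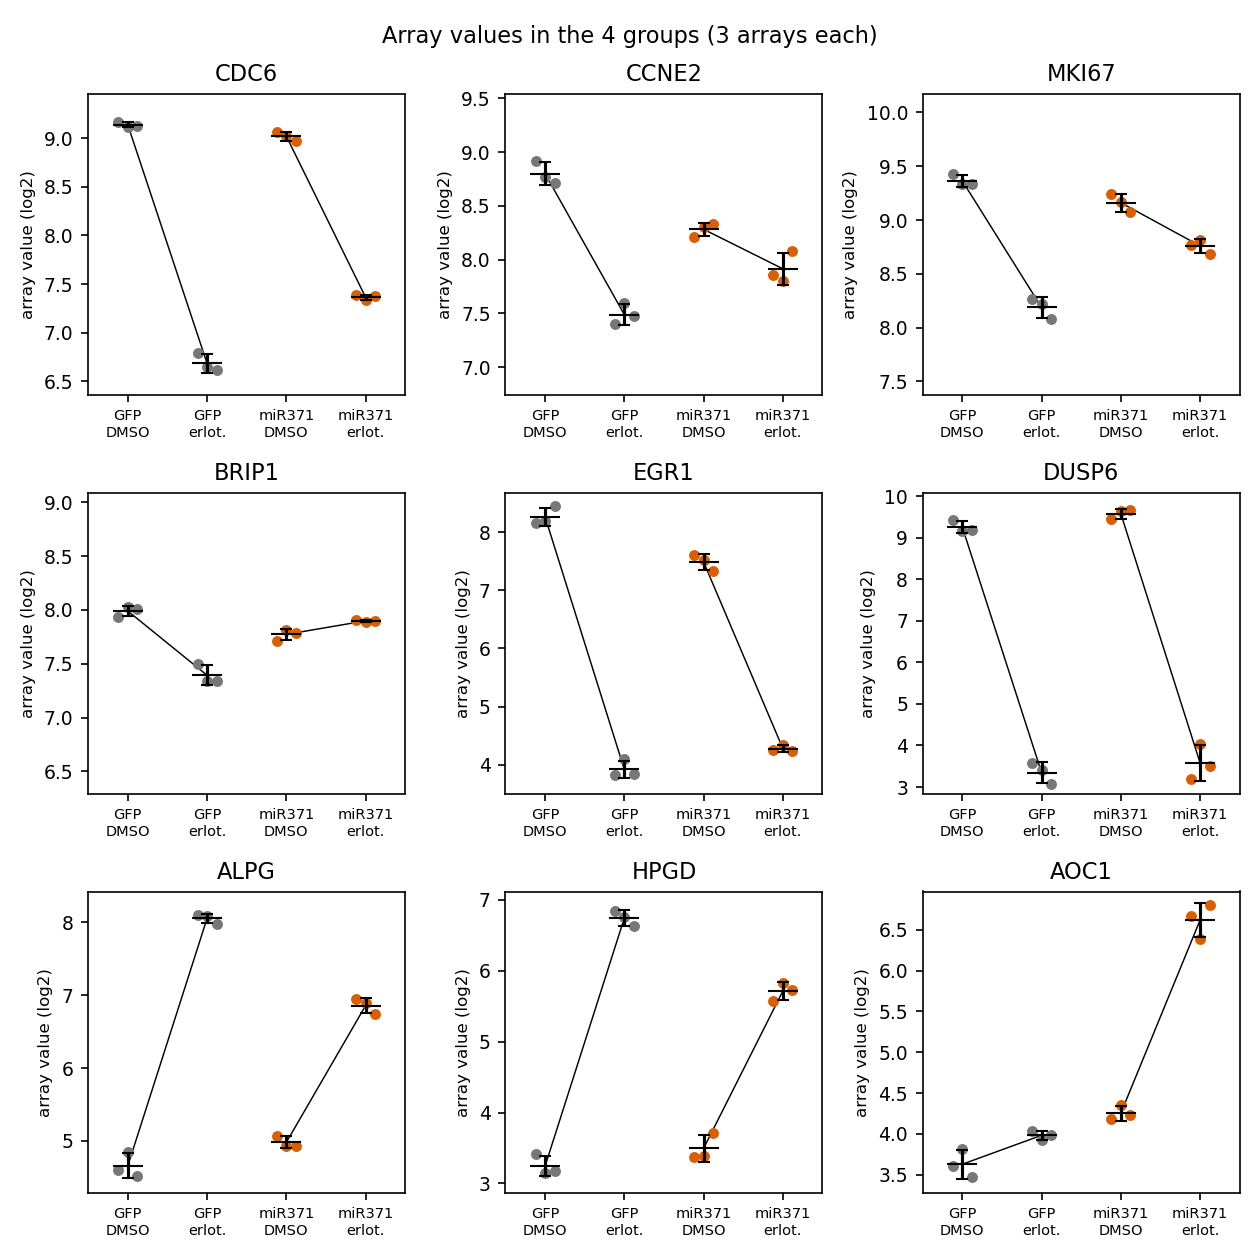
Array values (log2) of 9 genes in the 4 groups, with 3 arrays a group as points, the group mean and its SD as black marks, and a line from DMSO to erlotinib within each line. CDC6, CCNE2, MKI67 and BRIP1 end higher in miR371 precursor cells with erlotinib than in GFP vector cells, EGR1 and DUSP6 fall in both lines, ALPG and HPGD end lower in miR371 precursor cells, and AOC1 reaches 6.39 to 6.80 there against 3.92 to 4.03 in GFP vector cells.

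Direct output of the MAPK cascade fell in both lines, and 2 of its 27 measured genes had a difference of response at the adjusted p (2.00% of all genes). The list's median response was -2.66 in GFP vector cells and -2.36 in miR371 precursor cells, and its median difference was 0.11. EGR1, an immediate-early transcription factor, read 8.15, 8.19 and 8.44 in GFP vector cells with DMSO and 3.83, 4.10 and 3.84 with erlotinib. In miR371 precursor cells it read 7.61, 7.52 and 7.33, then 4.26, 4.34 and 4.24. It began lower and ended higher in miR371 precursor cells, without overlap between the lines, and its fall of 4.34 became one of 3.20 (difference 1.14 ± 0.14, adjusted p = 0.00615). The line difference of EGR1 was -0.78 in DMSO and 0.36 in erlotinib, so the larger part came with the lower start of EGR1. FOS, its partner among the immediate-early genes, fell by 3.01 and by 2.36 (difference 0.65, adjusted p = 0.00926). DUSP6, the phosphatase that feeds back on ERK, was picked after its values were seen, with 9.42, 9.17 and 9.18, then 3.58, 3.40 and 3.06 in GFP vector cells, and 9.45, 9.63 and 9.66, then 3.19, 4.04 and 3.51 in miR371 precursor cells. Those erlotinib values overlapped, and the difference of response was -0.09, with a 95% interval of -0.67 to 0.49 (adjusted p = 0.92). With erlotinib, EGR1 and DUSP6 read under the median of every array, a low level at which a difference between the lines can be hidden. For FOSL1 and CCND1 (cyclin D1), also picked after their values were seen, and for MYC, the differences were -0.03 (-0.34 to 0.27), 0.13 (-0.10 to 0.36) and -0.08 (-0.26 to 0.09), each with its 95% interval.

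Smaller falls outside these lists included those of NOG and CD274. NOG, noggin, an antagonist of BMP ligands, fell from 9.71, 9.90 and 9.86 to 5.32, 5.01 and 4.90 in GFP vector cells. In the other line it fell from 9.83, 10.00 and 9.99 to 6.16, 6.01 and 6.30. The erlotinib arrays did not overlap, and the falls of 4.75 and 3.79 differed by 0.96 ± 0.15 (adjusted p = 0.00993). CD274, the checkpoint ligand PD-L1, read 8.63, 8.60 and 8.60 in GFP vector cells with DMSO against 7.82, 7.81 and 7.92 in miR371 precursor cells. With erlotinib it was 5.30, 5.10 and 5.0 against 5.09, 5.44 and 5.20. Here the lines were apart before treatment and overlapped after it, so the difference of 0.87 (adjusted p = 0.00832) came with a lower start in miR371 precursor cells. The mean over both CD274 probe sets was 0.52 (adjusted p = 0.221). TNFAIP3, an inhibitor of NF-kB signalling, had a difference of 0.66 (adjusted p = 0.00615), and SNAI2, the transcription factor Slug, one of 0.55 (adjusted p = 0.00811, under the fold limit). IL1B, an inflammatory cytokine read at a low level, had one of 0.59 (adjusted p = 0.0431), a call kept only without miR371 precursor erlotinib replicate 1. Under the 11 other omissions of 1 array its adjusted p was 0.0573 to 0.108, and the mean of its probe sets was 0.25 (adjusted p = 0.425).

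The 5 most negative differences of response were all smaller rises. TRIM31, whose call was lost without most single arrays as given below, was among them, and ADH1C was not. ALPG, a germ-cell alkaline phosphatase close in sequence to ALPP, had the most negative difference of all genes tested. Its arrays read 4.60, 4.85 and 4.52 with DMSO and 8.10, 8.08 and 7.98 with erlotinib in GFP vector cells. The other line's arrays read 5.07, 4.93 and 4.93, then 6.94, 6.89 and 6.74. The rise of 3.40 was thus one of 1.88, a difference of -1.52 ± 0.13 (95% interval -1.79 to -1.24, adjusted p = 0.000652). HPGD, which degrades prostaglandins, rose from 3.41, 3.14 and 3.17 to 6.84, 6.76 and 6.63 in GFP vector cells. In the other line it rose from 3.38, 3.38 and 3.72 to 5.58, 5.83 and 5.74. The DMSO arrays of HPGD overlapped between the lines and the erlotinib arrays did not (difference -1.28 ± 0.16, adjusted p = 0.00615). KCNJ13, an inward rectifier potassium channel, rose by 2.55 and by 1.15 (difference -1.41, adjusted p = 0.00615). PLAAT4, a phospholipase and acyltransferase, rose by 3.13 and by 1.79 (adjusted p = 0.0128), and ADH1C, an alcohol dehydrogenase, by 3.45 and by 2.36 (difference -1.09, adjusted p = 0.00993).

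SGPP2, a phosphatase of sphingosine 1-phosphate, followed another course. It read 7.47, 7.49 and 7.45, then 9.05, 9.02 and 8.99 in GFP vector cells, and 8.30, 8.29 and 8.21, then 8.88, 8.98 and 8.78 in miR371 precursor cells. The line difference was 0.80 in DMSO (adjusted p = 8.34e-05) and -0.14 in erlotinib (adjusted p = 0.139), so the smaller rise (0.61 against 1.55, adjusted p of the difference 0.00121) started from a higher level. CHST4, a sulfotransferase that builds lymphocyte homing ligands, rose by 1.85 and by 0.93 (difference -0.92, adjusted p = 0.00782). For AGR2, a protein disulfide isomerase of mucus-secreting cells, and MUC20, a mucin, both picked after their values were seen, the differences were -0.74 and -0.79 (adjusted p = 0.00615 and 0.0072). TRIM31, a ubiquitin ligase, rose by 2.90 and by 1.61 (difference -1.30, adjusted p = 0.0477). That call was kept without GFP vector DMSO replicate 3 and without miR371 precursor DMSO replicate 2, and its adjusted p was 0.0535 to 0.113 without any of the 10 other arrays. It was also lost when every probe set was tested on its own (adjusted p = 0.0612).

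In the interferon response list 17 of 23 genes rose at the adjusted p in GFP vector cells (26.5% of all genes did), and 15 of the 17 rose by less in miR371 precursor cells. Over all genes that rose at the adjusted p in GFP vector cells, 72.9% rose by less in miR371 precursor cells. A single one, IFIT2, had a difference past the adjusted p, and the list's median difference was -0.14. IFIT2, an interferon-induced antiviral protein, rose from 4.86, 4.85 and 4.85 to 7.17, 7.05 and 7.04 in GFP vector cells. The miR371 precursor arrays rose from 4.99, 4.74 and 5.13 to 6.34, 6.29 and 6.21. The erlotinib arrays were lower in miR371 precursor cells without overlap (difference -0.90 ± 0.12, adjusted p = 0.0072), while the mean of its probe sets gave -0.53 (adjusted p = 0.109). MX1, another antiviral protein, had a difference of -0.56 (95% interval -0.91 to -0.21, adjusted p = 0.105).

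TNFSF10, the death ligand TRAIL, rose most of all genes in both lines. Its values went from 3.12, 2.98 and 3.34 to 11.06, 11.04 and 10.98 in GFP vector cells, and from 3.00, 3.04 and 3.45 to 10.13, 10.31 and 10.28 in miR371 precursor cells. The erlotinib arrays did not overlap, with a difference of -0.80 ± 0.17 (adjusted p = 0.035). It was the 1 gene past the adjusted p among 18 of the BCL2 family and death receptors. The call was kept without GFP vector DMSO replicate 3 and without miR371 precursor DMSO replicate 1 or 3, and its adjusted p was 0.0519 to 0.0840 without any of the 9 other arrays. The mean of the 3 TNFSF10 probe sets gave -0.31 (adjusted p = 0.25), and one of them gave 0.11. H2BC21, a histone H2B gene that rose by 2.61 and by 1.98, had a difference of -0.64 (adjusted p = 0.00742). Another histone gene, H2AX, fell by 1.00 and by 0.45 (difference 0.55, adjusted p = 0.0243). The H2AX call held when GFP vector DMSO replicate 1 or 3, or replicate 1 with erlotinib, was left out, with an adjusted p of 0.0509 to 0.0640 without any of the 9 other arrays and a mean over its probe sets of 0.13 (adjusted p = 0.554).

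Lost rises were mostly dim. Of the 8, 6 stayed under a log2 value of 6 in every group, as did 9513 of all genes (48.1%). LRRC36, a leucine-rich repeat protein, rose by 0.75 in GFP vector cells, with a response of -0.00 in miR371 precursor cells (difference -0.75, adjusted p = 0.00632). SWT1 rose by 1.20 in GFP vector cells and by 0.32 in miR371 precursor cells (difference -0.88, adjusted p = 0.00782). CLEC2B, a lectin-like surface protein, rose by 0.94 in GFP vector cells, with a response of 0.03 in miR371 precursor cells (difference -0.91, adjusted p = 0.0128). These are among the 6 dim genes.

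Stronger responses in miR371 precursor cells were few, 9 genes, and 8 of them were rises. AOC1, the diamine oxidase that degrades histamine, had the most positive difference of all genes tested. It read 3.60, 3.81 and 3.47, then 4.03, 3.92 and 3.99 in GFP vector cells. The miR371 precursor arrays read 4.18, 4.36 and 4.23, then 6.66, 6.39 and 6.80. The response of 0.35 in GFP vector cells (adjusted p = 0.0164, under the fold limit) stood against a rise of 2.37 in miR371 precursor cells, a difference of 2.01 ± 0.15 (95% interval 1.67 to 2.35, adjusted p = 0.000556). The line difference was 0.63 in DMSO (adjusted p = 0.00997) and 2.64 in erlotinib (adjusted p = 5.64e-07).

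FGFR3, a receptor tyrosine kinase, rose from 4.78, 4.67 and 4.44 to 7.81, 7.76 and 7.79 in GFP vector cells. In miR371 precursor cells it rose from 4.18, 4.24 and 4.13 to 8.15, 8.16 and 7.97. It began lower and ended higher there, with no overlap (difference 0.75 ± 0.12, adjusted p = 0.00926), but its other probe set gave -0.11 and the mean of both 0.32 (adjusted p = 0.108). SLC2A3, the glucose transporter GLUT3, rose from 6.17, 6.26 and 6.25 to 6.88, 6.84 and 6.89 in GFP vector cells and from 6.61, 6.51 and 6.72 to 7.94, 7.95 and 8.20 in miR371 precursor cells. It stood higher in miR371 precursor cells in both treatments (difference 0.78 ± 0.11, adjusted p = 0.0072). CXCL11, a chemokine of the CXCR3 receptor, rose by 0.98 and by 1.94 (difference 0.97, adjusted p = 0.00615), and CYP4Z1, a cytochrome P450, by 1.65 and by 2.60 (difference 0.95, adjusted p = 0.0154). Both of these genes were dim in every group.

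The other rises past the limits only in miR371 precursor cells were those of CLGN, a chaperone of the endoplasmic reticulum, TMEM255A and ZBED6, with differences of 0.85, 0.77 and 0.69 (adjusted p = 0.0223, 0.0225 and 0.0231). In GFP vector cells their responses were 0.41, 0.31 and 0.38, in miR371 precursor cells 1.26, 1.08 and 1.08. The call of CLGN was lost without miR371 precursor DMSO replicate 2, GFP vector erlotinib replicate 3 or miR371 precursor erlotinib replicate 2 or 3 (adjusted p 0.0534 to 0.0624). TMEM255A lost its call without miR371 precursor DMSO replicate 1 or 3, GFP vector erlotinib replicate 1 or 3 or miR371 precursor erlotinib replicate 3 (0.0529 to 0.0618). ZBED6 lost its call without GFP vector DMSO replicate 2, either of miR371 precursor DMSO replicates 1 and 2 or either of GFP vector erlotinib replicates 1 and 3 (0.0545 to 0.0647), and the mean of its probe sets was 0.30 (adjusted p = 0.155). Without GFP vector erlotinib replicate 3 the larger or gained rises numbered 5.

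RIPOR3 was the single gained fall. It read 5.37, 5.28 and 5.51, then 5.24, 5.38 and 5.31 in GFP vector cells, and 6.56, 6.49 and 6.27, then 5.76, 5.43 and 5.50 in miR371 precursor cells. The line difference of 1.05 in DMSO (adjusted p = 0.00035) was 0.25 with erlotinib (adjusted p = 0.118), and the difference of response was -0.80 ± 0.14 (adjusted p = 0.016). The other RIPOR3 probe set gave 0.31 and the mean of both -0.24 (adjusted p = 0.314). Without GFP vector DMSO replicate 1 there were 4 larger or gained falls, and 2 without miR371 precursor DMSO replicate 3 or GFP vector erlotinib replicate 1 or 2. ZGRF1, a zinc finger protein with a helicase domain, was among the 8 genes called in neither line, with responses of -0.47 and 0.21 (difference 0.68, adjusted p = 0.00927) and a mean over its probe sets of 0.17 (adjusted p = 0.571).

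As over all genes, more of the differing genes were apart between the lines only in erlotinib than only in DMSO. Over the 102 positive genes the median line difference, miR371 precursor minus GFP vector, was -0.20 in DMSO and 0.51 in erlotinib, and it changed sign in 83. At the adjusted p, 72 differed between the lines only in erlotinib, 13 only in DMSO, 14 in both and 3 in neither, where 5.25% of all genes differed in DMSO and 16.0% in erlotinib. Over the 56 negative genes the medians were 0.28 and -0.46, the sign changed in 45, and 32 differed only in erlotinib, 13 only in DMSO and 11 in both. Of all 19775 genes, 2621 differed only in erlotinib, 504 only in DMSO and 535 in both, and 6912 had line differences of opposite sign. Because the difference of response is the line difference in erlotinib minus that in DMSO, these values describe how it arose and do not test it again. EGR1, labelled in the plot of line differences, was apart in DMSO by -0.78 (adjusted p = 0.00223) and in erlotinib by 0.36 (adjusted p = 0.0334). For ALPG, which is not labelled there, the line differences were 0.32 (adjusted p = 0.0597) and -1.20 (adjusted p = 4.04e-05).

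**Figure D3:**
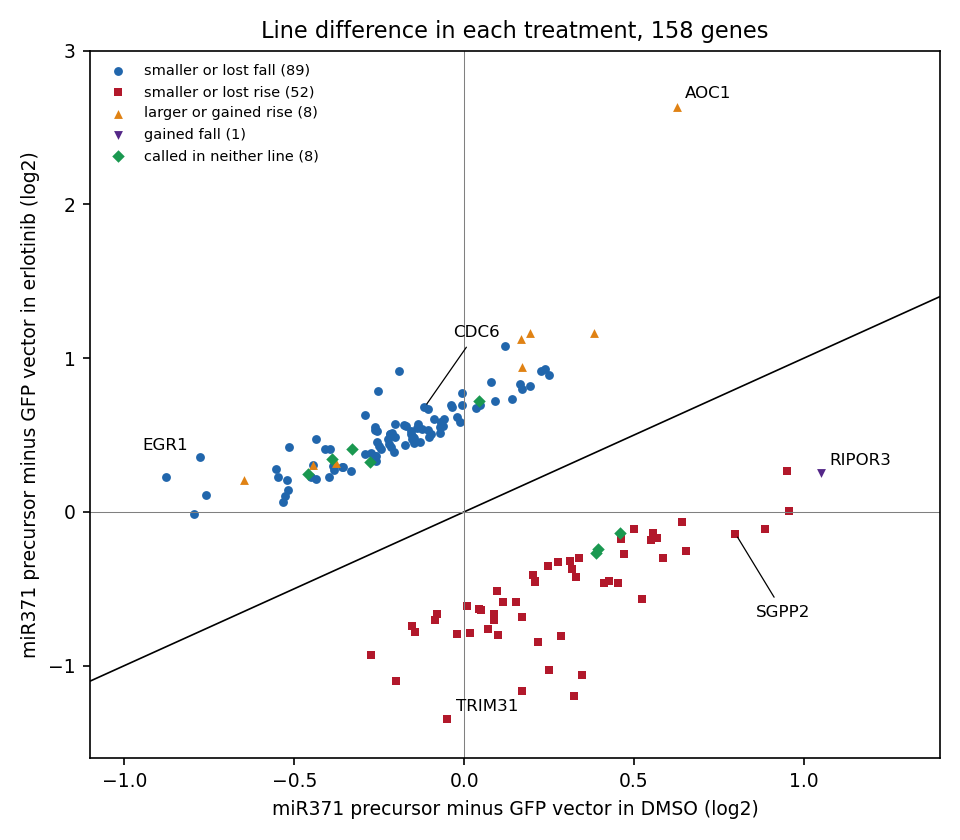
Difference between the lines (miR371 precursor minus GFP vector, log2) in DMSO on the x axis and in erlotinib on the y axis for the 158 genes whose difference of response passed, with a diagonal line of equal line difference. Marks give the response class. Blue points gather left of 0 and above it, red points right of 0 and below it, and AOC1 stands alone at 0.63 and 2.64.

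The remaining lists held few differing genes, where 2.00% of all genes passed the adjusted p in either direction, and a list with a single such gene is read as no result about the list. FGFR3 was the 1 gene of 16 of the EGFR family and bypass receptors past the adjusted p, and also the 1 of 18 of the drug tolerance list. Among 22 chemokines and genes of the interleukin 1 family, CXCL11, TNFAIP3 and IL1B passed, all 3 with a positive sign. Of 16 genes of the amino acid and ER stress response, 1 passed, SLC7A5, the large neutral amino acid transporter, with responses of -0.08 and 0.41 (difference 0.49, adjusted p = 0.00942). SNAI2 was the 1 of 21 mesenchymal and matrix genes. The lists of sterol synthesis (11 genes), glycolysis (19), ribosome biogenesis (13) and lung epithelium (20) held 0 genes past the adjusted p in either direction.

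CTSH, the lysosomal protease cathepsin H, was the 1 of 16 lysosome genes past the adjusted p (rises of 2.78 and 2.37, difference -0.41, adjusted p = 0.0304). The call was kept without GFP vector DMSO replicate 1, GFP vector erlotinib replicate 2 or miR371 precursor erlotinib replicate 2, and its adjusted p was 0.0538 to 0.0821 without any of the 9 other arrays. CAT, catalase, was the 1 of 21 genes of oxidative stress defence (rises of 1.96 and 1.60, difference -0.36, adjusted p = 0.0442), kept only without GFP vector DMSO replicate 1, with 0.0694 to 0.112 without any of the 11 others. CDH1, E-cadherin, was the 1 of 8 epithelial markers past the adjusted p, with responses of -0.16 and 0.16 (difference 0.32, adjusted p = 0.0433), and its call was lost without any single array (0.0618 to 0.112). Centring the arrays on their medians ended all 3 calls (adjusted p = 0.0831, 0.134 and 0.0657).

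Of 37 listed candidate targets of miR-371-3p, predicted from sequence, 34 were measured. At the adjusted p 1 had a positive and 1 a negative difference (1.44% and 0.561% of all genes), with a median of -0.15. The list came from the study, which read its members on these arrays. LOXL4, a lysyl oxidase, rose by 2.81 and by 2.22 (difference -0.59 ± 0.11, adjusted p = 0.0192), and UHRF1, a factor of DNA methylation maintenance, fell by 1.91 and by 1.44 (difference 0.47, adjusted p = 0.0236). The LOXL4 call was lost without GFP vector DMSO replicate 2, miR371 precursor DMSO replicate 2 or GFP vector erlotinib replicate 2 or 3 (adjusted p 0.0516 to 0.0578), and the mean of its probe sets was -0.30 (adjusted p = 0.107). The UHRF1 call held when GFP vector DMSO replicate 1 or 3, its erlotinib replicate 1 or miR371 precursor erlotinib replicate 3 was left out, and it was lost without any of the 8 others (0.0505 to 0.0675). For PRDX6, a peroxiredoxin with phospholipase activity, PLCB4, a phospholipase C, and STX12, a syntaxin of endosomes, the differences were -0.05 (95% interval -0.20 to 0.10, adjusted p = 0.817), 0.34 (-0.06 to 0.74, adjusted p = 0.424) and -0.18 (-0.37 to 0.02, adjusted p = 0.389). The study reported these genes as direct targets, from reporter assays with mutated sites and from quantitative PCR. A target lowered equally in both treatments gives no difference of response, so these values do not bear on targeting.

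**Figure D4:**
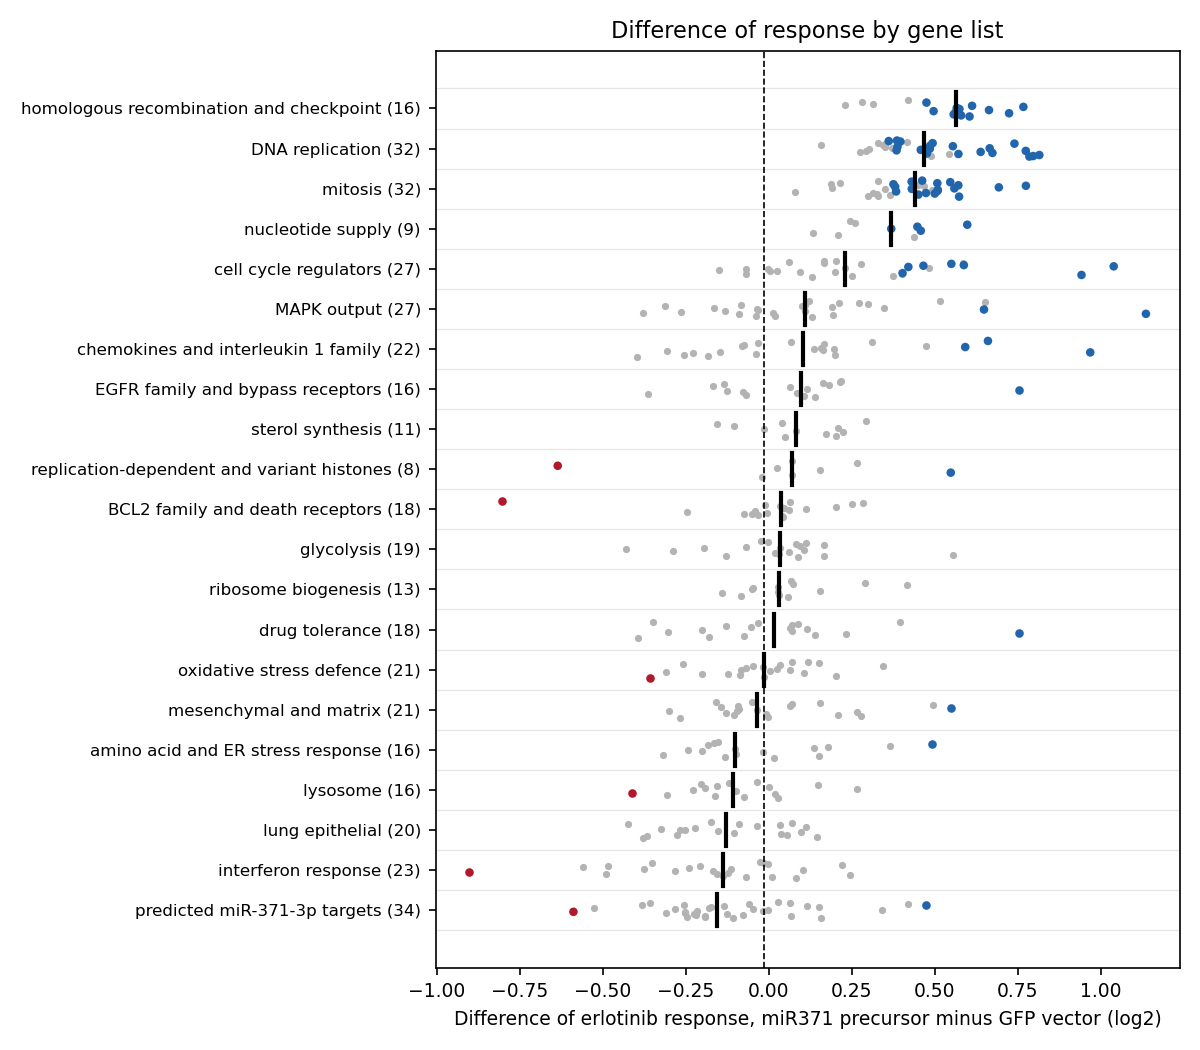
Difference of erlotinib response (miR371 precursor minus GFP vector, log2) of every measured gene of 21 lists, with the number of genes in brackets. Blue and red points passed the adjusted p with a positive or a negative sign, grey points did not, black bars are list medians and the dashed line is the median of all genes, -0.01. The lists of recombination, replication and mitosis lie to the right of it, with medians of 0.57, 0.47 and 0.44.

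Level and probe set bear on these counts. The median mean log2 value was 7.53 over the positive genes, 5.81 over the negative ones and 5.85 over all genes. Of the 158, 26 were under a log2 value of 6 in every group, as were 9513 of all genes (48.1%). Of the 64 positive genes with several probe sets, all gave the same sign in 40 and some gave the other sign in 24. Of 37 such negative genes the numbers were 26 and 11. Over all 10523 genes with several probe sets they were 4634 and 5889. With each gene's probe sets averaged 112 genes differed, with every probe set tested on its own 236, and among the 9650 genes of mean log2 6 or more 127.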

How the data were processed

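The 12 samples were read on Affymetrix Hgu133plus2 arrays. The deposited log2 values were made by the authors with RMA and affy, per the submitters' processing notes, and quantile normalized between arrays, with versions not given in the sources used here. Of 54675 probe sets, 41097 had 1 gene symbol, 1801 several and 11777 none, and 62 control probe sets were left out. Of the genes, 19735 were named through the identifier in RefSeq. A gene with several probe sets was read from its brightest one on average, which can hide probe sets that differ. Affymetrix values carry no depth, and 3 arrays a group limit the precision.

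Groups came from the labels. A linear model with 1 mean per group was fitted with limma 3.58.1 (R 4.3.3) to all 12 arrays, and the difference of response was tested as an interaction, two-sided, with Benjamini-Hochberg adjustment over 19775 genes. The study's own limits, a fold over 1.5 and an adjusted p under 0.05, were used for calls, and list members were counted at the adjusted p alone. The members and gene lists were chosen with earlier results of these data known. Genes were named by rank of their difference among all genes, in each class and in each list, and 11 others are marked in the text as picked after their values were seen. No pair of arrays was identical. The labels and files give no scan date, so batch was not modelled. The replicate numbers were checked for pairing: deviations of same-numbered arrays correlated by -0.06 to 0.20, so the numbers were not treated as pairs. Tables were handled with Python 3.11.15, pandas 2.3.3 and matplotlib 3.10.9. Simulated data had 200 of 19775 genes changed in their difference of response, called at the adjusted p alone with no fold limit. By that rule 10.0% of changes of 0.3 log2 units were called, 52.0% of 0.6, 84.0% of 1 and 100.0% of 2, with 6 unchanged genes called. The rates with the fold limit were not simulated. The simulated noise was drawn independently for each gene and array, so these rates need not hold for the real arrays. The alternatives were another choice of probe sets, a filter on dim genes, repeated quantile normalization, centring on medians, a robust eBayes trend, array weights, a replicate block, other fold limits and leaving out each array in turn.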

Additional observations from a re-analysis of the deposited data

Results flagged for a closer look

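The responses of the lines to the same drug differed by the interaction test, which flags the 102 genes with a positive and the 56 with a negative difference of response and each gene below at a limma adjusted p under 0.05. Among replication and nucleotide genes the differences were 0.80 for CDC6, 0.67 for MCM6, 0.74 for POLE2, 0.67 for GINS2, 0.81 for CLSPN, 0.79 for CDC45, 0.77 for MCM10, 0.55 for PCNA and 0.60 for TYMS. Among regulators they were 0.94 for CCNE2, 1.04 for E2F7 and 0.59 for FOXM1, and for MYBL1, which is in no list, 1.11. Among mitosis genes they were 0.77 for MKI67, 0.56 for KIF11, 0.51 for CDK1, 0.47 for CCNA2 and 0.51 for PRC1, and for ESCO2 and IQGAP3, which are in no list, 0.92 and 0.82. Among recombination genes they were 0.72 for BRIP1, 0.56 for BRCA1, 0.66 for EXO1 and 0.57 for FANCI.

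Other genes outside the cell cycle lists had positive differences of 1.14 for EGR1, 0.65 for FOS, 0.96 for NOG, 0.87 for CD274, 0.66 for TNFAIP3, 0.55 for SNAI2, 0.59 for IL1B, 0.55 for H2AX, 0.49 for SLC7A5, 0.47 for UHRF1, 0.32 for CDH1 and 0.68 for ZGRF1. For rises that were larger or gained in miR371 precursor cells they were 2.01 for AOC1, 0.97 for CXCL11, 0.78 for SLC2A3, 0.75 for FGFR3, 0.95 for CYP4Z1, 0.85 for CLGN, 0.77 for TMEM255A and 0.69 for ZBED6.

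Negative differences were -1.52 for ALPG, -1.41 for KCNJ13, -1.33 for PLAAT4, -1.30 for TRIM31, -1.28 for HPGD, -1.09 for ADH1C, -0.94 for SGPP2, -0.92 for CHST4, -0.90 for IFIT2, -0.80 for TNFSF10, -0.79 for MUC20, -0.74 for AGR2, -0.64 for H2BC21, -0.59 for LOXL4, -0.41 for CTSH and -0.36 for CAT. For the lost rises they were -0.75 for LRRC36, -0.88 for SWT1 and -0.91 for CLEC2B, and for the gained fall of RIPOR3 the value was -0.80.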

How the results depend on the processing

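The 158 differing genes became 112 with each gene's probe sets averaged, 236 with every probe set tested on its own, 127 among genes of mean log2 6 or more, 167 with quantile normalization repeated, 162 with arrays centred on their medians, 231 with a robust eBayes trend, 269 with array weights and 115 (without miR371 precursor DMSO replicate 1) to 191 (without GFP vector DMSO replicate 3) without 1 array. Array weights ran from 0.367 (GFP vector DMSO replicate 1) to 4.22 (GFP vector DMSO replicate 2). The 102 positive differences became 165 with every probe set, 284 with no fold limit and 5 with a fold over 2, and 74 (without GFP vector DMSO replicate 1) to 126 without 1 array. The 56 negative ones became 37 with a mean of at least 6, 105 with the robust trend, 130 with array weights, 111 with no fold limit and 8 with a fold over 2, and 35 (without miR371 precursor DMSO replicate 1) to 65 without 1 array. The 89 smaller or lost falls became 145 with every probe set, 240 with no fold limit and 4 with a fold over 2, and 60 (also without GFP vector DMSO replicate 1) to 109 without 1 array. The 52 smaller or lost rises became 88 with the robust trend, 109 with array weights, 87 with no fold limit and 8 with a fold over 2, and 32 (again without miR371 precursor DMSO replicate 1) to 59 without 1 array. The 8 larger or gained rises became 2 with a mean of at least 6, 16 with array weights, 13 with no fold limit and 1 with a fold over 2, and 5 (without GFP vector erlotinib replicate 3) to 11 without 1 array. The 1 gained fall became 0 with probe sets averaged, with a mean of at least 6 and with a fold over 2, 2 with every probe set and with the robust trend, 3 with array weights, 4 with quantile normalization repeated and 9 with no fold limit, and 1 to 4 without 1 array. The 18 mitosis genes became 11 with every probe set, 28 with a mean of at least 6, 29 with the robust trend and 7 to 17 without 1 array, and the 20 replication genes 12 to 19 without 1 array. The arrays behind the lowest counts of the mitosis and replication genes are named in the report, and the cause was not tested.

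With the replicate block, 154 genes differed, 100 positively and 54 negatively. The block ended the calls of CDH1 (adjusted p = 0.0649) and TRIM31 (0.082). The replicate numbers were not treated as pairs in the main fit.

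Of the 74 genes named in the text, 64 passed the adjusted p, and 52 to 60 did without 1 array. Under the settings other than leaving out arrays, 542 of 571 values of these genes kept direction and side of the threshold, 26 lost the call, 1 gained it (MX1 with array weights, adjusted p = 0.0312) and 2 turned sign. Those were CDKN1A with quantile normalization repeated (-0.031) and DUSP6 with array weights (0.014). Without 1 array, 780 of 888 values kept both, 97 lost the call and 11 turned sign. The sign changes were those of CDKN1A (-0.059 to 0.044), DUSP6 (-0.32 to 0.10) and FOSL1 (-0.12 to 0.085), whose adjusted p was 0.503 or more in every setting.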
